A study of Saccharomyces cerevisiae with 2 samples.

Results

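The genes described here are the 35 nuclear genes for the mitochondrial respiratory chain and the ATP synthase of the budding yeast Saccharomyces cerevisiae, out of 7163 features with values. They were chosen by name, as the NADH dehydrogenases (3 genes), cytochrome c (2 genes), complex III (9 genes), complex IV (9 genes) and the ATP synthase (12 genes), and the rule uses no measured value, although it was written with earlier results of these data known. Strain MF02, labelled wild type, and strain UV02_HG were both sampled in mid-exponential growth at 40% (w/v) glucose, and their RNA was sequenced. What separates UV02_HG genetically from MF02 is not given in the sources used here, beyond a series title that speaks of tolerance to high glucose. The labels give 1 sample per strain, and the deposited table holds 2 columns of FPKM for each (fragments per kilobase, scaled to the counted fragments of the column).

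Electrons from NADH and succinate pass through ubiquinone to complex III, the cytochrome bc1 complex, then through cytochrome c to complex IV, cytochrome c oxidase, and the proton gradient that results drives the ATP synthase. Budding yeast has no proton-pumping complex I and uses single-protein NADH dehydrogenases on either face of the inner membrane in its place. Many of these genes are repressed by glucose and activated by the Hap2/3/4/5 complex, which binds CCAAT, and yeast keeps aerobic and hypoxic isoforms of cytochrome c and of oxidase subunit 5. A few core subunits of complex IV, complex III and the ATP synthase are encoded in mitochondrial DNA and are not members.

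The series' design text speaks of duplicates without saying whether these were separate cultures. The columns of a strain were therefore treated as runs of 1 sample, and ranges over columns may be technical or biological spread. On that reading no difference between the strains has a replicate check and no p-value was computed. The columns rested on 12507299 to 15144991 counted reads. FPKM is a share of the counted RNA, so a gene's level per cell was not measured. All 35 members had reads in every column and all passed the filter of 1 FPKM in either strain. The thinnest value was that of NDE2 in UV02_HG column 1, with 189 reads (exact Poisson 95% interval 163 to 218, for counting error only). The ratio of a gene is the log2 of its mean UV02_HG level over its mean MF02 level after adding 1 FPKM to each, followed in brackets by the range over the 4 comparisons of single columns. Because the ratio of all genes followed coding length, each is also given minus the median ratio of the 200 other genes nearest in length, called the length-relative ratio.

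Promoters of 28 of the 35 members (80%) held the letters CCAAT on either strand in the 250 bases before and 50 bases from the start codon, against 2590 of 5990 promoters of nuclear genes in the R64 reference genome (43.2%). Complex IV had the motif in 8 of 9 promoters, all but that of COX4, and the ATP synthase in 11 of 12, all but that of ATP1. Neither cytochrome c gene had it in this window. The 8 stretches below, from the R64 genome of the reference strain S288C (NCBI RefSeq) and not from the strains sequenced here, show 1 complex IV site per promoter with 10 bases on either side, the site farthest upstream that has those bases within the window. COX5A, COX5B, COX7 and COX9 each hold another site that is not shown. The motif is in capitals, and each is written on the strand on which it reads CCAAT.
COX5A: caaaaatcgtCCAATagacgttttc
COX5B: aaacaatagaCCAATtatttcaatt
COX6: tttgaccggaCCAATtaggtccctt
COX7: cgcggcgtagCCAATcaagtactgc
COX8: acggtttgcaCCAATcatacgagag
COX9: tggtagcgggCCAATcaggttgcag
COX12: ataacattgaCCAATcaattttcag
COX13: ttttttcccaCCAATgagaggcggt

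The sites shown begin 162 bases before the start codon in COX7 and 205 bases before it in COX12, the oxidase genes with the highest and the third highest length-relative ratios below. The one shown begins 147 bases before the start codon in COX9 and 72 bases before it in COX5B, a pair of genes whose ratio was level with other genes of their length. The median length-relative ratio was 0.21 in the 28 members with CCAAT and -0.16 in the 7 without it, which ran from CYT1 (-1.02) to CYC7 (1.46). A repeat unit of the site of the heme-responsive activator Hap1, CGGNNNTA, was in 7 member promoters (20%) against 22.1% of all promoters. Part of the site of the hypoxic repressor Rox1, ATTGTTC, was in 7 (20%) against 7.66% of all, 3 of them in complex IV and 4 in the ATP synthase. The Hap2/3/4/5 and Rox1 letters do not overlap in the promoters of COX5A and COX5B, the aerobic and the hypoxic form of oxidase subunit 5, which are shown whole because both motifs occur in each. They are written on the gene's own strand, with the Hap2/3/4/5 and Rox1 letters, or their reverse complements, in capitals and the start codon after the 250th base.
COX5A: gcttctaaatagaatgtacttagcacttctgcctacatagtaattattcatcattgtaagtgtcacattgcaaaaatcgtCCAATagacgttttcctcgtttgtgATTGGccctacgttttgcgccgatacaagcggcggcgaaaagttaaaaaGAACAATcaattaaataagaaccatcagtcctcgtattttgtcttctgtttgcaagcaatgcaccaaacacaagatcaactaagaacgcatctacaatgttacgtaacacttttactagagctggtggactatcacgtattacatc
COX5B: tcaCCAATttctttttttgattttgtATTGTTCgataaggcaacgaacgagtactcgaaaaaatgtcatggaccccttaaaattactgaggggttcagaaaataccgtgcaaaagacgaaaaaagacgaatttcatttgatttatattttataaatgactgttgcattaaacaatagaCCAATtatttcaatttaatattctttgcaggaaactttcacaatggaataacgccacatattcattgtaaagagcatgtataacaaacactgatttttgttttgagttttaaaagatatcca

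As a set, the short subunit genes stood higher and the long ones lower in UV02_HG. Of the 35 members 14 were higher by 2-fold or more in the column means (background 14.7% of 6291 features) and 9 were lower by as much (background 47.2%), while 12 differed by less. In each of the 4 column comparisons 9 members were higher by 2-fold (background 8.68%) and 6 were lower (background 24.9%). The members' median ratio was 0.50, against -0.89 for all features. This split depended on scaling, which moved the background with it. Equal FPKM totals gave 5 higher (background 4.71%) and 16 lower (68.5%). Upper quartile scaling gave 18 higher (23.8%) and 5 lower (27.3%). Centring on the median gene gave 19 higher (28.6%) and 5 lower (20.6%), and the trimmed mean of M values gave 18 higher (26.4%) and 5 lower (22.4%).

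**Figure D1:**
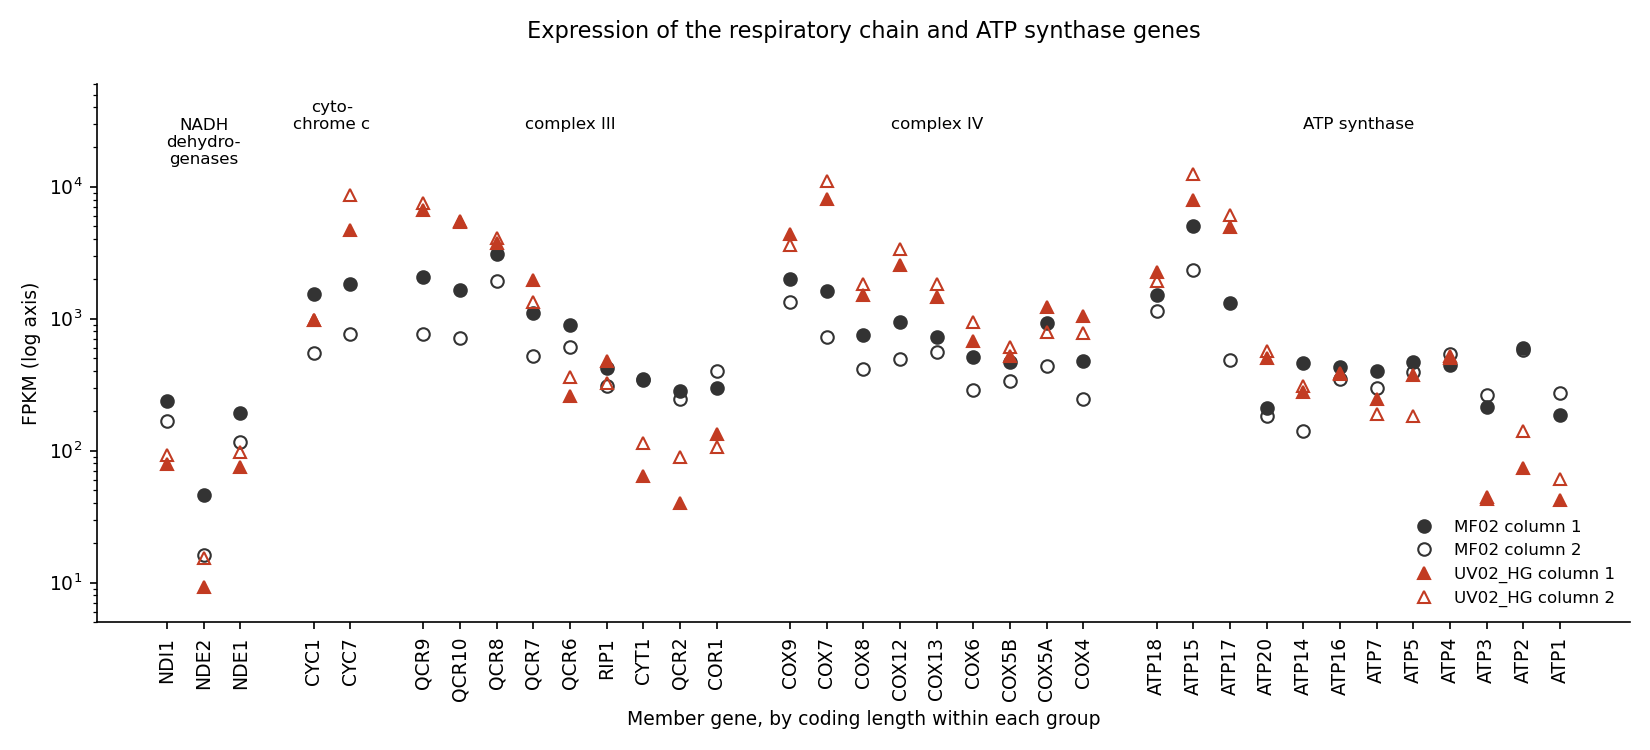
FPKM of each member (vertical log axis) in the 2 columns of MF02 (circles) and the 2 of UV02_HG (triangles), by group and, within it, by coding length. COX7, QCR9, ATP17 and CYC7 have both UV02_HG columns far above both MF02 columns, and ATP1, ATP2, ATP3, CYT1 and QCR2 have them far below.

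Together the members took 1.25% and 0.850% of the counted reads in the MF02 columns and 1.76% and 2.09% in those of UV02_HG. In 17 members both UV02_HG columns lay above both MF02 columns, in 12 they lay below, and in 6 the columns overlapped. The MF02 columns themselves differed, with column 2 below column 1 for 30 of the 35 members and by 2-fold or more for 11, whereas the UV02_HG columns were 2-fold apart for 2 members. Matching shares over all features were not computed for the overlap of columns or for these differences. The counts therefore describe the members only.

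The longer a gene, the lower its ratio tended to be. As a description over the 35 members, which share the same libraries, Spearman's rho of coding length with the ratio was -0.82, against -0.53 over 5695 genes. The MF02 columns carried a length trend of their own, with a rho of 0.53 between length and the ratio of column 2 to column 1 in the members (0.62 over all genes). The 22 members up to 500 nt had a median ratio of 1.29, against 0.82 for the 821 other genes of that length. The 13 members over 500 nt had a median of -1.27, against -1.25 for 4839 others, but those others were longer (median 1380 nt against 1107 nt). Relative to genes of their own length, the members up to 500 nt had a median of 0.32 (0.24 to 0.53). Those over 500 nt had -0.55 (-0.97 to 0.090). The rho of coding length with the length-relative ratio was -0.33 in the members.

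**Figure D2:**
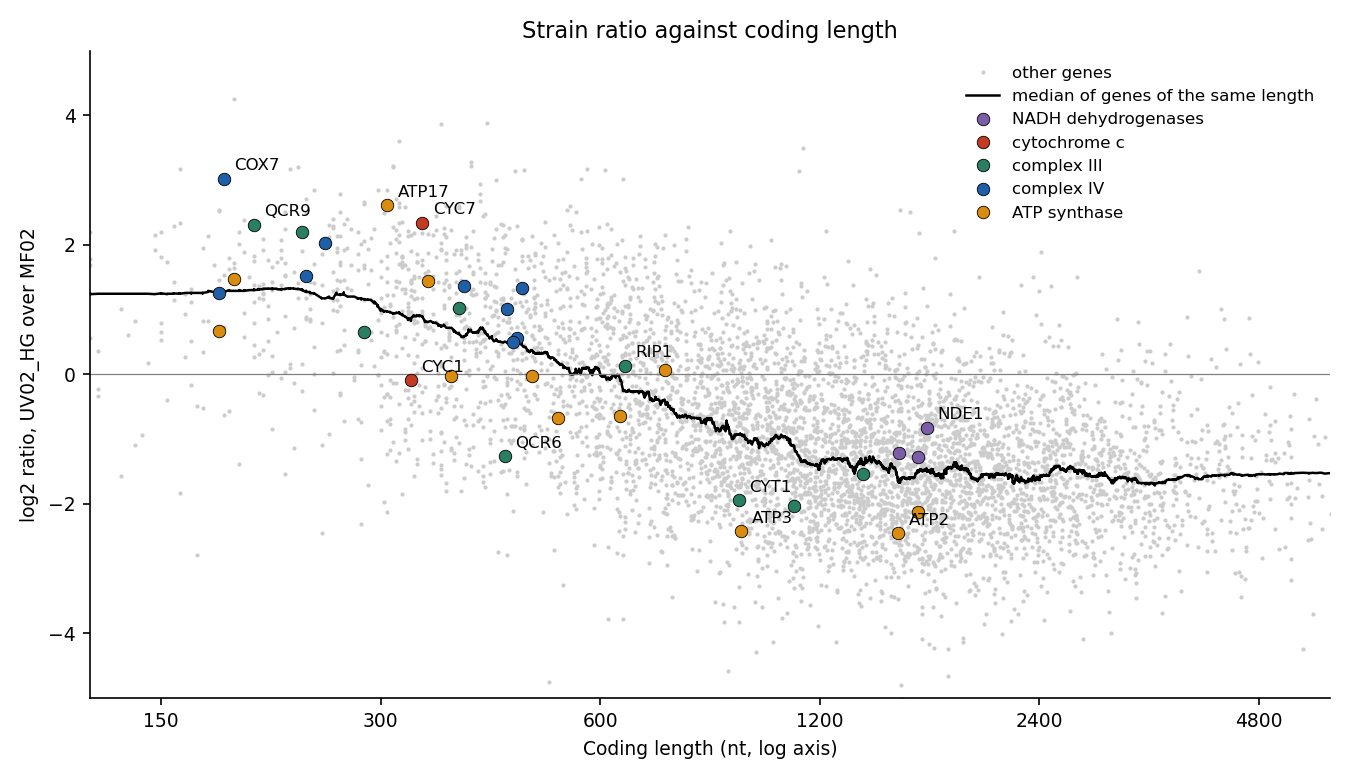
Log2 ratio of UV02_HG over MF02 against coding length (log axis), with each grey point a gene, the black line the median of the 200 other genes nearest in length, and coloured points the members. Genes shorter than the axis start, longer than its end or beyond the vertical limits are not drawn. The members follow the line downwards, with COX7, ATP17 and CYC7 above it and QCR6 and ATP3 below it.

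Relative to genes of their own length, 28 of the 35 members lay within 2-fold, against 3755 of 5695 genes. COX7, ATP17, CYC7 and QCR9 lay at least 2-fold above (4 of 35, background 17.3%), and QCR6, ATP3 and CYT1 at least 2-fold below (3 of 35, background 16.8%). QCR9 (1.01) and CYT1 (-1.02) stood just past the limit, and CYC1 (-0.96), QCR2 (-0.92) and QCR10 (0.90) just short of it. In all 4 column comparisons 13 members lay above genes of their length (background 33.6%) and 11 below (background 33.3%), both shares near the background. Their median length-relative ratio was 0.18 and turned to -0.19 with MF02 column 1 alone. That column alone put 8 members 2-fold below genes of their length, and MF02 column 2 alone put 10 of them 2-fold above. The share of all genes past these limits with a single MF02 column was not computed.

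**Figure D3:**
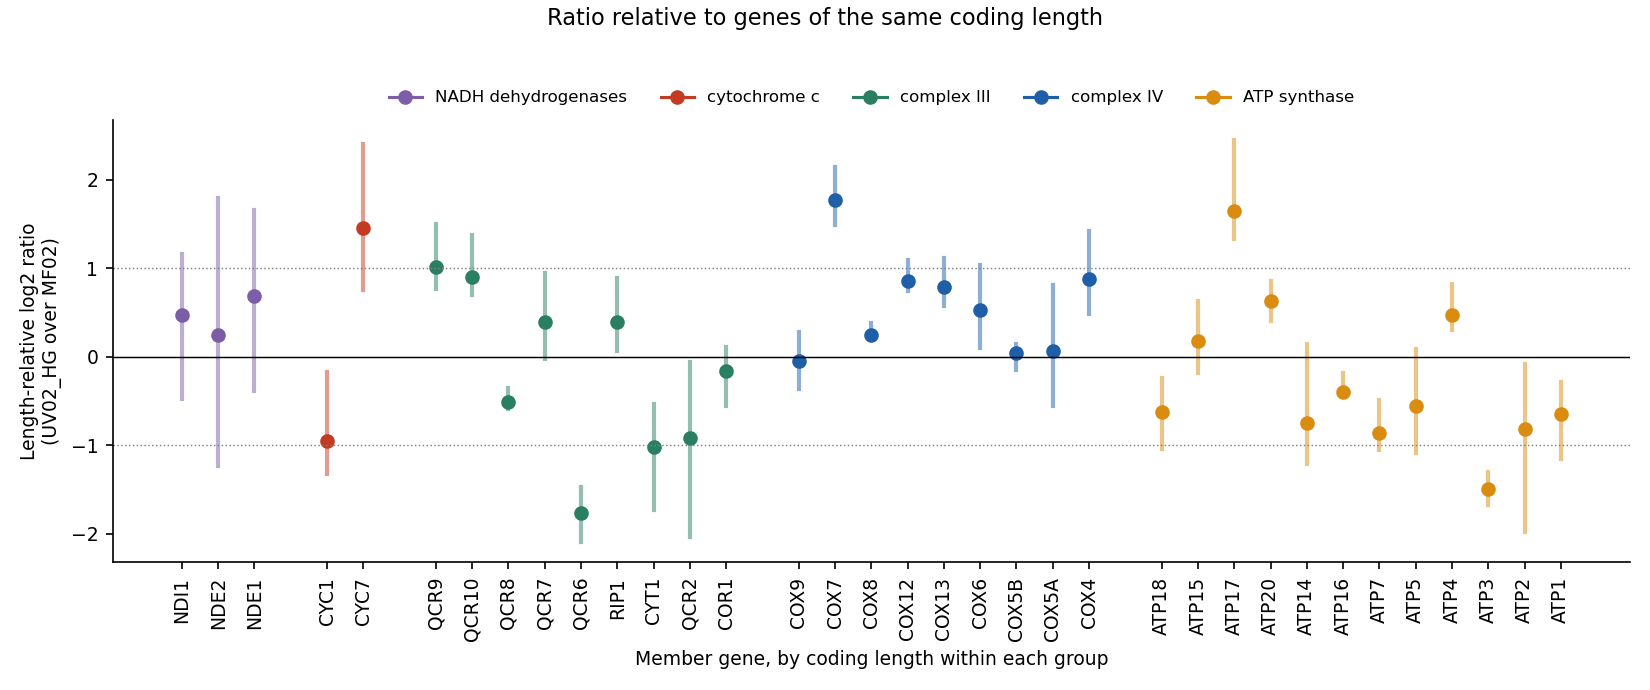
Length-relative log2 ratio of each member (points, from column means) with the range over the 4 comparisons of single columns (bars), where 0 is the median of genes of the same length and dotted lines mark 2-fold. None of the complex IV bars lies wholly below 0, while those of 6 of the 12 ATP synthase genes do.

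Complex IV, the terminal oxidase, was the group that stood highest among the larger complexes. All 9 genes had positive ratios, 7 of them of 2-fold or more and none lower, where 44.5% of the 821 other genes up to 500 nt were 2-fold higher and 9.50% lower. The median was 1.34 (0.88 to 1.71), and 0.26 with equal FPKM totals. The length-relative median was 0.53 (0.28 to 0.92). By length-relative ratio, 8 of the 9 genes lay above 0, 6 of them in all 4 column comparisons and none below it in all 4.

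COX7 (YMR256C, chromosome XIII), a small subunit of 183 nt coding length, had 1624 and 731 FPKM in the MF02 columns, and UV02_HG had 8121 and 11067 FPKM. Its ratio of 3.03 (2.32 to 3.92), or 8.14-fold, was the largest of the 35, and its length-relative ratio of 1.77 (1.49 to 2.14) was too. Chromosome XIII as a whole had a length-relative median of 0.38 over 456 genes. COX12 (YLR038C), the subunit called 6b in mammals, had 946 and 493 FPKM against 2539 and 3348 FPKM, a ratio of 2.03 (1.42 to 2.76) and a length-relative ratio of 0.86 (0.75 to 1.09). COX4 (YGL187C), a zinc-binding subunit, had 479 and 246 FPKM against 1050 and 782 FPKM, with a length-relative ratio of 0.88 (0.48 to 1.41). In COX13 (YGL191W), the subunit called 6a in mammals, 720 and 557 FPKM stood against 1449 and 1831 FPKM, with a length-relative ratio of 0.785 (0.57 to 1.11). For these 4 genes both UV02_HG columns were above both MF02 columns, as they were for COX5B, COX6, COX8 and COX9. Within complex IV only COX5A had overlapping columns. The matching share over all features was not computed.

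Other oxidase subunits differed less from genes of their length. COX6 (YHR051W) had 515 and 288 FPKM in the MF02 columns, and UV02_HG had 676 and 945 FPKM. Its ratio of 1.01 turned to -0.050 with equal FPKM totals. Its length-relative ratio was 0.53 (0.094 to 1.04). COX8 (YLR395C) had 754 and 413 FPKM against 1512 and 1833 FPKM, 2.86-fold higher, yet its length-relative ratio was 0.25 (0.19 to 0.38). COX9 (YDL067C), at 2011 and 1335 FPKM against 4366 and 3617 FPKM, was 2.39-fold higher and at -0.046 (-0.37 to 0.28) relative to length. The 2-fold excess of COX9 was thus that of other genes of 180 nt.

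The isoforms of subunit 5 stayed close to each other. COX5A (YNL052W), the aerobic form, had 931 and 441 FPKM in strain MF02 against 1228 and 788 FPKM for UV02_HG. COX5B (YIL111W), the hypoxic form, had 467 and 334 FPKM against 525 and 605 FPKM. Within a column, COX5B stood at 0.501 and 0.758 of COX5A in MF02 and at 0.428 and 0.767 in UV02_HG, so the ranges overlapped. The coding sequences are of like length (456 and 462 nt), 65.5% identical, and share no identical run longer than 12 nt.

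Cytochrome c, the soluble carrier between complexes III and IV, showed the widest split between a pair of isoforms. CYC7 (YEL039C, chromosome V), which encodes iso-2-cytochrome c, the form favoured under low oxygen, had 1847 and 761 FPKM in the MF02 columns, and UV02_HG had 4674 and 8585 FPKM. CYC1 (YJR048W), which encodes the main aerobic iso-1 form, had 1536 and 552 FPKM in the MF02 columns, and UV02_HG had 985 and 972 FPKM. The CYC7 columns did not overlap, whereas both UV02_HG columns of CYC1 lay between those of MF02.

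The ratio of CYC7 to CYC1 within a column was 1.203 and 1.38 in MF02 and 4.75 and 8.83 in UV02_HG, a 5.43-fold difference between the column means. As the coding lengths are 342 and 330 nt, this ratio bears little on length, and a scaling of whole columns leaves it as it is. The length-relative ratios were 1.46 (0.75 to 2.40) for CYC7 and -0.96 (-1.32 to -0.18) for CYC1. The coding sequences are 74.9% identical in bases and 81.4% in amino acids, and reads that fall inside shared runs could be assigned to either gene or to none. The longest identical run they share in R64, bases 238 to 272 of the CYC7 coding sequence, is printed here. It bounds exact matches of a read to both coding sequences, not matches that allow mismatches.
CYC7 and CYC1: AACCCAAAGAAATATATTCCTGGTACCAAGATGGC

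**Figure D4:**
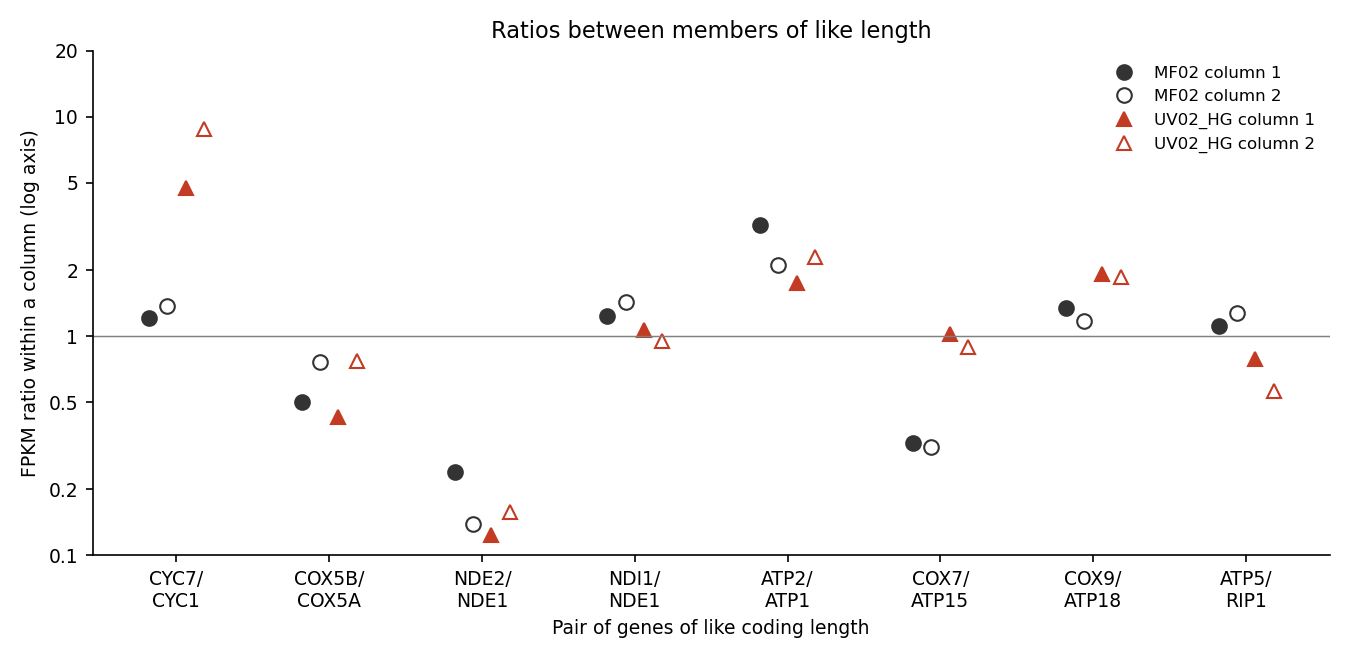
FPKM of the first gene over that of the second within each column (log axis) for 8 pairs of members of like coding length, with circles for MF02, triangles for UV02_HG, and filled and open symbols for columns 1 and 2. The strains lie farthest apart for CYC7 over CYC1 and then for COX7 over ATP15, lie closer but apart for NDI1 over NDE1, COX9 over ATP18 and ATP5 over RIP1, and overlap for the other pairs.

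Complex III, which hands electrons from ubiquinol to cytochrome c, divided by subunit. Of its 9 genes 4 were lower by 2-fold or more (background 47.2%) and 3 higher (background 14.7%). Among genes outside the members, 58.9% of those over 500 nt were 2-fold lower and 44.5% of those up to 500 nt were 2-fold higher. The complex III median was 0.13 (-0.38 to 0.63) and turned to -0.95 with equal FPKM totals. Its length-relative median was -0.16 (-0.53 to 0.11), with 4 genes above 0 and 5 below it.

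The large subunits were lower. CYT1 (YOR065W), the gene for cytochrome c1, had 342 and 349 FPKM in strain MF02 against 64.3 and 114 FPKM for UV02_HG, a ratio of -1.94 (-2.42 to -1.58) and a length-relative ratio of -1.02 (-1.74 to -0.53). QCR2 (YPR191W), a core protein gene, had 285 and 248 FPKM against 40.4 and 88.9 FPKM, with -0.92 (-2.03 to -0.059) relative to length. COR1 (YBL045C), the other core protein gene, had 299 and 401 FPKM against 133 and 107 FPKM. All 3 were lower in UV02_HG in every column comparison, but COR1, at -0.16 (-0.56 to 0.11) relative to length, stood where genes of 1374 nt generally did. RIP1 (YEL024W), the gene for the Rieske iron-sulfur protein, had 423 and 308 FPKM against 477 and 325 FPKM, and these columns overlapped.

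Among the small subunits the genes for the last pair stood apart from QCR6. QCR9 (YGR183C) had 2082 and 772 FPKM in the MF02 columns, and UV02_HG had 6688 and 7500 FPKM, a ratio of 2.31 (1.68 to 3.28) and a length-relative ratio of 1.01 (0.76 to 1.49). QCR10 (YHR001W-A) had 1660 and 717 FPKM against 5427 and 5514 FPKM, and 0.90 (0.69 to 1.37) relative to length. Together with COX5B they are the 3 members with an intron in the coding region. QCR6 (YFR033C), the acidic hinge protein gene, had 888 and 608 FPKM against 261 and 359 FPKM. Its ratio was -1.27 (-1.76 to -0.76) and its length-relative ratio, -1.77 (-2.10 to -1.48), was the lowest of the 35, as it was the only gene up to 500 nt among the members that was 2-fold lower.

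QCR7 (YDR529C) and QCR8 (YJL166W) lay between these. QCR7 had 1104 and 520 FPKM against 1954 and 1336 FPKM, and its ratio of 1.02 turned to -0.028 with equal FPKM totals. QCR8, at 3078 and 1927 FPKM against 3729 and 4116 FPKM, was 1.57-fold higher but at -0.51 (-0.59 to -0.36) relative to length. Its excess was smaller than that of other genes of 285 nt in each column comparison.

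The ATP synthase, which couples the proton gradient to ATP formation, had the lowest length-relative median of the 5 groups, -0.59 (-0.66 to -0.18), while its raw median was -0.028 (-0.37 to 0.045) and turned positive under 3 of the 4 scalings. Of its 12 genes 3 were lower by 2-fold or more (background 47.2%) and 3 higher (background 14.7%). Of its 6 genes up to 500 nt 3 were 2-fold higher, against 44.5% of 821 other genes of that length. Of its 6 genes over 500 nt 3 were 2-fold lower, against 58.9% of 4839 others. Relative to length 8 of the 12 genes lay below 0, 6 of them in all 4 column comparisons, and 4 lay above, 3 of them in all 4.

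The catalytic F1 part held the lowest ratios among the members. ATP2 (YJR121W), the beta subunit gene, had 602 and 576 FPKM in the MF02 columns, and UV02_HG had 73.3 and 140.3 FPKM, 5.47-fold lower (ratio -2.45, -3.02 to -2.03). ATP1 (YBL099W), the alpha subunit gene, had 188 and 274 FPKM against 42.2 and 61.4 FPKM, 4.39-fold lower. ATP3 (YBR039W), the gamma subunit gene of the central stalk, had 214 and 264 FPKM against 42.8 and 44.3 FPKM, 5.38-fold lower. None of the 3 had overlapping columns, and their length-relative ratios were -0.82 (-1.98 to -0.084), -0.65 (-1.16 to -0.28) and -1.50 (-1.67 to -1.31) in the order given.

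The other F1 subunits are short. ATP16 (YDL004W), the delta subunit gene, had 432 and 350 FPKM against 384 and 385 FPKM, with overlapping columns and -0.40 (-0.45 to -0.19) relative to length. ATP15 (YPL271W), the epsilon subunit gene, had 5019 and 2337 FPKM against 7934 and 12436 FPKM, the highest level of any member in 3 of the 4 columns. Its length-relative ratio was 0.18 (-0.19 to 0.63). Set against ATP15, of 189 nt, COX7, of 183 nt, stood at 0.324 and 0.313 of its FPKM in MF02 and at 1.02 and 0.890 in UV02_HG.

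Genes of the peripheral stalk, which holds F1 against the membrane part, were within 2-fold. ATP4 (YPL078C, subunit b) had 443 and 542 FPKM against 507 and 525 FPKM, and ATP5 (YDR298C, the oligomycin sensitivity protein) had 472 and 393 FPKM against 373 and 182 FPKM. ATP7 (YKL016C, subunit d) had 404 and 299 FPKM against 247 and 190.2 FPKM, and ATP14 (YLR295C, subunit h) had 458 and 142 FPKM against 280.4 and 307 FPKM. Relative to length ATP4 stood at 0.47 (0.30 to 0.82), while ATP7 stood at -0.86 (-1.06 to -0.49), ATP14 at -0.75 (-1.22 to 0.14) and ATP5 at -0.55 (-1.08 to 0.090). ATP4 was thus the only stalk gene above genes of its length.

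In the membrane part ATP17 (YDR377W, subunit f) had 1319 and 490.0 FPKM in strain MF02 against 4993 and 6080.2 FPKM for UV02_HG, a ratio of 2.61 (1.92 to 3.63) and a length-relative ratio of 1.65 (1.33 to 2.44), the second highest of all members. ATP20 (YPR020W, subunit g, involved in dimer formation) had 211 and 184 FPKM against 508 and 565 FPKM, 2.71-fold higher and at 0.63 (0.40 to 0.86) relative to length. ATP18 (YML081C-A, subunit i) had 1501 and 1145 FPKM against 2270.2 and 1941 FPKM, which is 1.59-fold higher and -0.63 (-1.04 to -0.24) relative to length. All 3 had higher UV02_HG columns, but ATP18 was higher by less than other genes of 180 nt were.

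The NADH dehydrogenases, which pass electrons from NADH to ubiquinone, were lower in UV02_HG, but by less than genes of their length in the column means. NDI1 (YML120C), the enzyme on the matrix side, had 236 and 167 FPKM in the MF02 columns, and UV02_HG had 79.5 and 93.4 FPKM. NDE1 (YMR145C), the main enzyme facing the cytosol, had 191 and 117 FPKM against 74.9 and 98.5 FPKM. NDE2 (YDL085W), its paralogue, had 46.1 and 16.3 FPKM against 9.23 and 15.4 FPKM, the lowest level of the 35 members in every column. No column overlapped for the 3 genes, although NDE2 in MF02 column 2 and UV02_HG column 2 nearly met.

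Their median ratio was -1.21 (-1.56 to -0.25), and 2 of the 3 were lower by 2-fold or more, as were 58.9% of 4839 other genes over 500 nt. NDE1 stood at -0.82 and turned to 0.067 after centring on the median gene. Length-relative ratios were 0.46 (-0.48 to 1.16) for NDI1, 0.68 (-0.39 to 1.65) for NDE1 and 0.24 (-1.23 to 1.80) for NDE2, so none kept a side of 0 over the column comparisons. Both NDI1 and NDE1 lie on chromosome XIII, where the length-relative median of all genes was 0.38. NDE2 relative to NDE1 was 0.241 and 0.139 in MF02 and 0.123 and 0.157 in UV02_HG, which overlap. NDI1 relative to NDE1 was 1.24 and 1.43 in MF02 and 1.06 and 0.949 in UV02_HG.

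Within a column, the members were highly expressed for their length in both strains. Among the 200 other genes nearest in length, the median member stood at percentile 84 and 82 of the FPKM in MF02 and at 83.5 in each UV02_HG column. Complex IV went from 79.5 and 78 in MF02 to 83 and 82.5 in UV02_HG, and the ATP synthase from 84 and 85.5 to 80.3 and 72.8. The single gene ATP3 went from 84 and 87.5 to 62.5 and 63.5, QCR6 from 79.5 and 80.5 to 57.5 and 60.5, and COX7 from 80 and 78.5 to 90 and 92.5. COR1 stayed between 95 and 97.5 in all 4 columns, the highest rank for its length in 3 of them, with ATP2 above it in MF02 column 2 at 95.5. NDE2 was the exception at the low end, between 15.5 and 73.5.

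Compared with genes of like length and also of like level (the 50 nearest in length among those within 4-fold of the mean FPKM), COX7 was the only member left at least 2-fold above, at 1.51, and 5 lay below. CYC7 was then at 0.80, ATP17 at 0.96 and QCR9 at 0.76. The 5 were QCR6 (-1.80), CYC1 (-1.53), ATP3 (-1.37), QCR8 (-1.11) and ATP7 (-1.03). The share of all genes past 2-fold in this setting was not computed, so these counts describe the members only. The complex IV median stayed positive at 0.38 and that of the ATP synthase negative at -0.61.

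Other genes of the same pathways were read beside the members. Complex II, succinate dehydrogenase, which also feeds the tricarboxylic acid cycle, had a length-relative median of -0.38 (-1.03 to 0.19) over 4 genes. SDH1, for the flavoprotein, had 215 and 131 FPKM in the MF02 columns, and UV02_HG had 27.6 and 63.2 FPKM. SDH2, for the iron-sulfur subunit, had 296 and 214 FPKM against 128 and 118 FPKM. The membrane anchor genes SDH3 and SDH4 had ratios of -0.62 (-1.48 to 0.56) and 0.099 (-1.05 to 1.42). Only SDH2 lay below genes of its length in all 4 column comparisons. The 12 tricarboxylic acid cycle genes had a length-relative median of -0.35 (-0.77 to 0.068), the 73 mitochondrial ribosomal protein genes had -0.33 (-0.58 to -0.062), and complex IV at 0.53 stood on the other side of 0 from both. The cycle genes ran from LSC2, for a succinyl-CoA ligase subunit (-1.05), to CIT3, for a mitochondrial citrate synthase (1.77), and the ribosomal ones from MRP10 (-2.87) to MRPL6 (1.71).

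**Figure D5:**
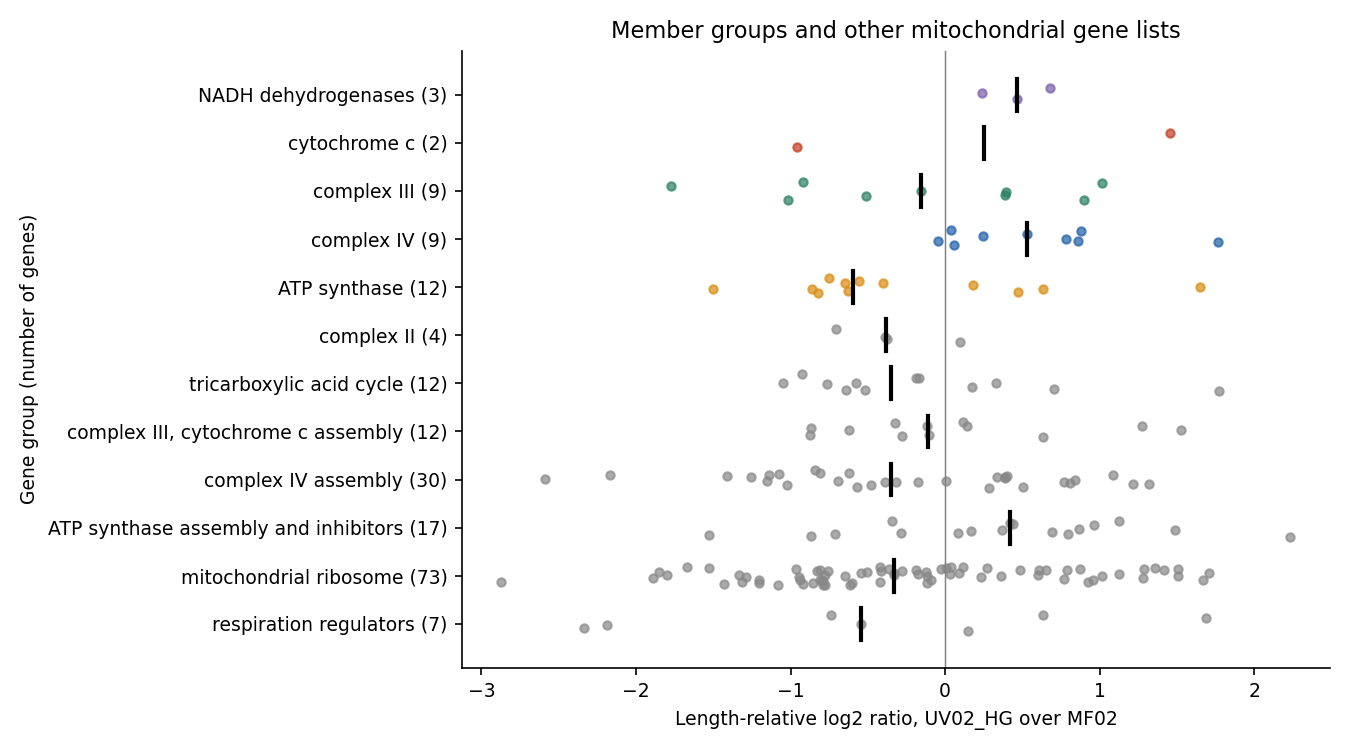
Length-relative log2 ratio of single genes (points) in the 5 member groups (coloured) and 7 other lists (grey), with black bars at the medians and gene numbers in brackets. Complex IV points lie almost wholly at or above 0, whereas those of the complex IV assembly list spread widely on both sides.

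Genes for assembling the complexes were read as 3 lists, and their differences from the subunits were not tested. The 30 complex IV assembly genes had a length-relative median of -0.35 (-0.50 to -0.23). Of these, 8 lay at least 2-fold below genes of their length (background 16.8%) and 3 above (background 17.3%). This list ran from COX23, for an intermembrane space protein (-2.59), to PET54, for a translation activator (1.32). For the ATP synthase a list of 17 assembly and inhibitor genes, which also holds the small subunit genes TIM11 (0.96) and ATP19 (0.086), had a median of 0.42 (0.18 to 0.41), from NCA3 (-1.53) to AEP2 (2.23), and the column means gave a value just above the range of single columns. The 12 assembly genes of complex III and cytochrome c had -0.11 (-0.13 to 0.19), from CBP3 (-0.87) to CBP6 (1.53). Of the 3 supercomplex factors, RCF2 was at -2.04 and RCF1 at 0.55 relative to length.

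Among the electron donors beside NADH, DLD1, for D-lactate dehydrogenase, had 418 and 329 FPKM in strain MF02 against 35.4 and 67.9 FPKM for UV02_HG, 7.11-fold lower and at -1.29 (-2.46 to -0.38) relative to length. GUT2, for the mitochondrial glycerol 3-phosphate dehydrogenase, stood at 1.499 (-0.072 to 2.87). Of 4 carrier genes of the mitochondrial membranes, AAC1, a minor ADP/ATP carrier gene, was the highest at 1.65 and POR1, the porin gene, the lowest at -0.72 relative to length.

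Of 7 regulators of respiration 4 were lower by 2-fold or more and none higher, near the background of 47.2% lower, and relative to length 3 lay above 0 and 4 below. ROX1, the hypoxic repressor gene, had 23.3 and 74.1 FPKM in the MF02 columns, and UV02_HG had 3.68 and 4.43 FPKM, 9.83-fold lower and at -2.19 (-2.78 to -1.17) relative to length. HAP5, a DNA-binding subunit gene of the CCAAT complex, had 56.1 and 95.1 FPKM against 8.66 and 12.2 FPKM, at -2.34 (-2.94 to -1.56) relative to length. HAP4, the glucose-regulated activation subunit gene, had 188 and 343 FPKM against 136 and 157 FPKM, at 0.64 (0.49 to 0.75). HAP2 stood at -0.74, HAP3 at 0.15 and HAP1 at -0.55, and MOT3, another repressor gene, was the highest of the list at 1.69 relative to length. The subunits of the CCAAT complex thus lay on both sides of genes of their length. Of the 3 hypoxic genes listed, HEM13, for a step of heme synthesis, was 7.24-fold lower in UV02_HG and at -1.83 (-2.46 to -1.26), with none of the 3 above genes of its length.

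Genes of the mitochondrial genome, which encode subunits of the same complexes and, in VAR1, a mitochondrial ribosomal protein, had few reads. OLI1, the ring subunit gene of the ATP synthase, had 22.7 and 7.43 FPKM in the MF02 columns, and UV02_HG had 97.3 and 195.5 FPKM. COX2 had 3 and 1 reads (MF02) against 61 and 11 (UV02_HG), and COX3 had 1 and 0 against 18 and 4 reads. COX1 had 11 and 4 reads against 24 and 12, COB 0 and 3 against 8 and 4, and ATP6 3 and 1 against 4 and 1, all under 1 FPKM on average. VAR1 had 1 read in all and ATP8 none. OLI1 alone had over 20 reads in every column, against at least 189 for each nuclear member.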

How the data were processed

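The authors deposited FPKM values for 7163 features, 2 columns per strain per the file headers. The tools named include TopHat2 2.0.12, HTSeq 0.6.1 and Bowtie2 2.2.3, per the submitters' processing notes. The build and any strand setting are not given there. The columns are not stated to be separate cultures, so each strain counted as 1 sample.

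Gene IDs were looked up by locus tag in RefSeq's R64 annotation, with 6010 coding lengths found and no coordinates printed. FPKM multiplied by coding length gave whole reads, within 0.02, for at least 99.8% of genes above 0 in each column, and the library totals follow from this. No count test was run on 1 sample per strain.

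Ratios used a pseudocount of 1 and 6291 features whose mean reached 1 FPKM in a strain, 5695 of them with a coding length. The members and 12 comparison lists were chosen with earlier results of these data known. From each list the extremes by length-relative ratio among genes of at least 10 FPKM are named, with the HAP, ROX1, SDH and mitochondrial genes. Pairs of like length and percentiles by length were added after seeing the data. No member overlaps another gene of R64. The length-relative ratio was tried on simulated reads in which both UV02_HG columns carried the same smooth length trend. No length trend was simulated between the MF02 columns, unlike in the real ones, so the trial says little about their spread. Work was done in Python 3.11.15 with scipy 1.17.1, pandas 2.3.3, numpy 2.4.6, Biopython 1.88 and matplotlib 3.10.9.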

Additional observations from a re-analysis of the deposited data

How the results depend on the processing

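Equal FPKM totals gave 16 members 2-fold lower, 5 higher, a median ratio of -0.59, 5 members 2-fold below genes of their length, and ratios of -0.028 for QCR7 and -0.050 for COX6. The members' median was 1.15 with upper quartile scaling, 1.39 centred on the median gene and 1.29 with the trimmed mean of M values, and each left 5 members lower. The median of all features, -0.89, became -1.82, -0.26, 0 and -0.11 under these in the same order. A 4-fold threshold left 4 lower, 6 higher and 0 past it relative to length, and a 1.5-fold threshold put 10 below and 10 above relative to length. A pseudocount of 5 put 5 members below. MF02 column 1 alone put 8 below, with a length-relative median of -0.19, MF02 column 2 alone put 10 above, with 1.51 for the NADH dehydrogenases, and UV02_HG column 1 alone put 5 below. Genes of like length and level gave 5 below, 1 above and a cytochrome c median of -0.36. Adjusting for length and then GC content gave -0.35 for the ATP synthase. The cause of these moves was not tested. Background shares were computed for the main setting and, for the raw ratios, under the 4 scalings. The other counts here describe the members only. Over 17 settings, the main one included, 12 members stayed above genes of their length and 12 below, and 11 changed side. The length-relative medians of complex III and complex IV moved by less than 1 SD over the 4 column comparisons in every alternative run. Their raw medians moved by more than 1 SD under all 4 scalings. A scaling of whole columns largely cancels in a length-relative ratio by construction, so the 4 scalings say little about how firm those medians are. The single-column settings use the same columns as the SD. No paired analysis was possible because each strain is 1 sample. Low read numbers limited the mitochondrially encoded genes most, and why they were low was not tested.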
